A study of Arabidopsis thaliana with 30 samples.

Results

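Heated Arabidopsis thaliana seedlings labelled smxl4 smxl5 were compared with heated seedlings labelled smxl6 smxl7 smxl8, gene by gene, from mRNA sequencing of 3 libraries per genotype. These are 6 of the 30 libraries of the series, which holds 5 genotypes, each with and without heat. Both groups were seedlings 7 days old, grown on agar at 22 °C, and both had been in a water bath at 44 °C for 85 min. The contrast therefore sets 2 mutants against each other at 1 condition, and no wild-type library enters the difference. The other heated libraries of the series, wild-type Col-0, ski2 dcl4 and ski2 dcl4 dcl2, entered the estimate of the spread between replicates, and Col-0 values are given in places for orientation. The unheated libraries of the same 2 genotypes were fitted separately. The labels give neither the alleles nor the generation of the mutant lines. Nor do they tell whether the replicates of a group were grown apart. The p-values therefore reflect how far replicate libraries scatter, estimated over the heated libraries of all 5 genotypes, and this could be technical scatter.

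The SMXL proteins are nuclear repressors related in sequence to ClpB chaperones, the family of the heat shock protein HSP101. SMXL6, SMXL7 and SMXL8 hold back strigolactone responses until the receptor D14 and the F-box protein MAX2 have them degraded, and plants without them branch little and behave as if strigolactone were always present. SMXL4 and SMXL5 are not part of that hormone pathway. They promote the formation of phloem, the tissue that carries sugar from leaves to roots, and plants lacking both are known for defects in sieve elements and in sugar transport. HSFA2, named together with SMXL4/5 in the title of the series, is a heat shock factor that is induced by heat and prolongs the heat response.

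Values are FPKM, read fragments divided by transcript length and library size, as the authors deposited them for 38088 genes. In the 6 heated libraries 23996 to 24264 genes had a value above 0, and in a gene of 1 kb an FPKM of 1 stood for about 13.1 to 15.5 reads. For that figure, genes above 0 in at most 6 of the 30 libraries were used. The median of their values above 0, times transcript length, was taken as 1 read. The figure is approximate, since some of those values may hold more than 1 read. The values of a library summed to 1014460 to 1099790 FPKM with the label smxl4 smxl5 and to 966028 to 1010630 with the label smxl6 smxl7 smxl8, without overlap. Pearson correlations of log2 values lay between 0.978 and 0.983 within the groups and between 0.966 and 0.973 across them. The labelled tissue was checked against 4 shoot markers, whose sums were 19713 to 21511 FPKM with the label smxl4 smxl5 and 16246 to 18407 with the label smxl6 smxl7 smxl8, and 8 root markers, whose sums were 88.7 to 131 and 68.0 to 71.1 FPKM. The root marker IRT1 and the shoot markers RCA and CAT2 were themselves called higher and are described with their lists. The seed storage genes CRA1, OLEO1 and SESA1 summed to at most 1.69 FPKM in any of the 6 libraries, and the flower genes AP3 and AG averaged at most 0.25 FPKM in either group. The third flower and pollen marker, AGL18, averaged 8.63 and 9.38 FPKM and was not called.

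The 5 genes named by the genotypes did not all follow the labels, and 3 of them were the genes whose difference between the genotypes moved most clearly with heat. SMXL7 and SMXL6 were higher, and SMXL4 was lower, in the heated libraries labelled smxl4 smxl5, which is the direction the labels give, while SMXL5 was not called. Without heat, SMXL5 and SMXL4 were both higher in the libraries labelled smxl4 smxl5, against their label, and SMXL7 was slightly higher in the libraries labelled smxl6 smxl7 smxl8, against theirs. Values per gene leave the position of reads within a gene unseen, so neither label could be settled from them, and groups are called by their labels throughout.

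SMXL4 (AT4G29920, chromosome 4, 14632413 to 14636101, RefSeq TAIR10.1) had 0.803, 1.15 and 1.29 FPKM in libraries labelled smxl4 smxl5, against 1.93, 2.22 and 2.31 FPKM in libraries labelled smxl6 smxl7 smxl8 (log2 difference −0.60 ± 0.14 SE, adjusted p = 0.00969). SMXL5 (AT5G57130, chromosome 5, 23144947 to 23149615) had 2.97, 2.86 and 3.32 FPKM with the label smxl4 smxl5 and 3.23, 3.83 and 3.64 FPKM with the label smxl6 smxl7 smxl8 (log2 difference −0.17 ± 0.09 SE, adjusted p = 0.199). The groups did not overlap for SMXL4, with all heated smxl4 smxl5 libraries low, and overlapped for SMXL5. Without heat SMXL5 had 14.6, 15.45 and 14.98 FPKM in libraries labelled smxl4 smxl5, against 4.57, 3.45 and 4.64 FPKM in libraries labelled smxl6 smxl7 smxl8, without overlap.

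SMXL7 (AT2G29970, chromosome 2, 12776208 to 12780069), the member best known as a target of strigolactone signalling, had 7.72, 7.29 and 9.28 FPKM in libraries labelled smxl4 smxl5, against 3.27, 2.84 and 3.45 FPKM in libraries labelled smxl6 smxl7 smxl8 (log2 difference 1.12 ± 0.11 SE, adjusted p = 3.07e-05), with no overlap. Unheated, it stood at 6.47, 6.85 and 6.19 FPKM in libraries labelled smxl4 smxl5 and at 7.79, 9.32 and 7.48 FPKM in libraries labelled smxl6 smxl7 smxl8 (log2 difference −0.29, adjusted p = 0.0427). SMXL6 (AT1G07200, chromosome 1, 2208477 to 2212718) had 4.74, 4.41 and 4.86 FPKM with the label smxl4 smxl5 and 3.06, 3.09 and 3.04 FPKM with the label smxl6 smxl7 smxl8 (log2 difference 0.48 ± 0.09 SE, adjusted p = 0.00271). It differed by a like amount without heat (log2 difference 0.42, adjusted p = 0.00432). SMXL8 (AT2G40130, chromosome 2, 16765709 to 16769279) was low, under 1 FPKM in every heated library of both groups. It had 0.747, 0.614 and 0.800 FPKM in libraries labelled smxl4 smxl5, against 0.377, 0.331 and 0.421 FPKM in libraries labelled smxl6 smxl7 smxl8 (log2 difference 0.32 ± 0.10 SE, adjusted p = 0.047). Its groups did not overlap. Its call was lost without any 1 smxl4 smxl5 replicate or any 1 smxl6 smxl7 smxl8 replicate (adjusted p from 0.062 to 0.13). The remaining family members SMAX1, SMXL2 and SMXL3 were not called (log2 differences 0.35, 0.07 and −0.08).

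**Figure D1:**
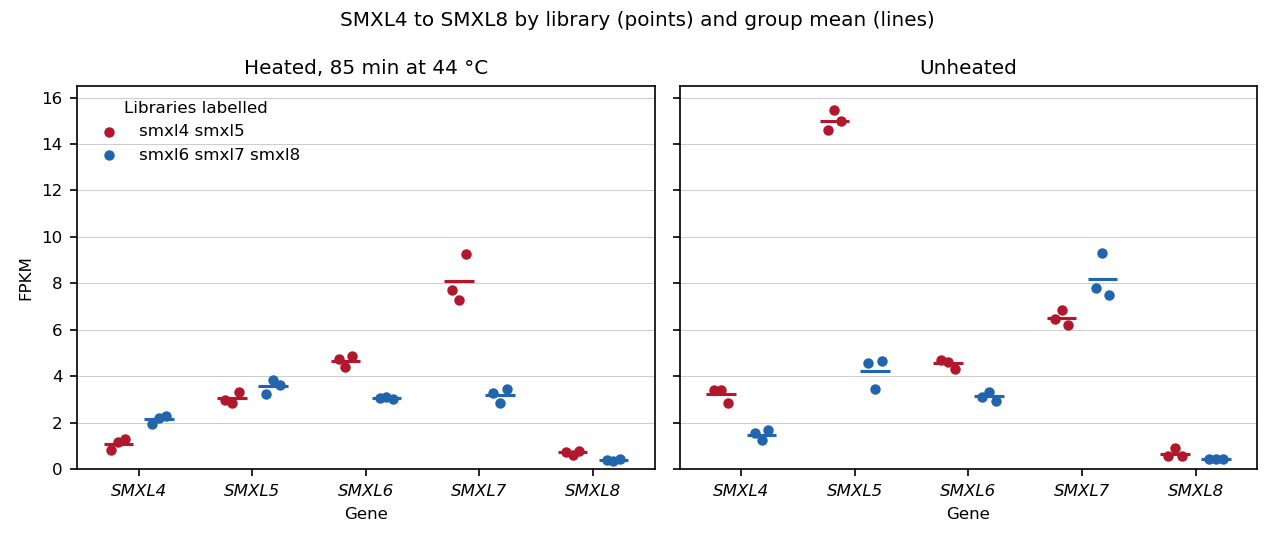
FPKM (linear axis) of SMXL4 to SMXL8 in each library, heated on the left and unheated on the right; points are libraries, lines are means of 3, and libraries labelled smxl4 smxl5 stand left of those labelled smxl6 smxl7 smxl8. The mean of SMXL5 is 3.05 against 3.57 FPKM after heat and 15.01 against 4.22 FPKM without it.

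Across all genes, the 2 mutants differed at many loci by small amounts. Of 20424 genes tested, 4063 were called (19.9%) at an adjusted p under 0.05, and 6728 had an unadjusted p under 0.05 (32.9%). In the libraries labelled smxl4 smxl5, 2247 were higher (11.0%) and 1816 lower (8.89%). The median log2 difference of all tested genes was 0.01. The median size of a called difference was 0.46, and 122 rises and 247 falls reached 1 on the log2 scale. The 3 libraries of the groups did not overlap for 4324 genes that stood above (21.2%) and 3576 that stood below (17.5%) in the libraries labelled smxl4 smxl5. All differences are of log2(FPKM + 1), smxl4 smxl5 minus smxl6 smxl7 smxl8, and understate the change of genes with low values.

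Of the genes called after heat, more were also called in the same direction in unheated seedlings than were not. In the unheated libraries, 3706 of 20817 genes were called (17.8%), 1667 higher (8.01%) and 2039 lower (9.79%) with the label smxl4 smxl5, and 6719 had an unadjusted p under 0.05 (32.3%). Among 19920 genes tested in both, 2114 were called in the same direction with and without heat, which is 52.6% of the heated calls and 58.4% of the unheated calls, and 96.2% of the heated calls had the same sign without heat. Only SMXL4 and SMXL7 were called in opposite directions. The log2 differences of the 2 conditions, which share no library, had a Pearson r of 0.657 across genes, and genes are not independent replicates. A direct test of whether the difference changed with heat called 3 of 21531 genes (0.0139%), 1 with a higher (0.00464%) and 2 with a lower (0.00929%) difference after heat, and 1601 had an unadjusted p under 0.05 (7.44%). The genes called were SMXL5 (−1.80 ± 0.12 SE, adjusted p = 1.16e-08), SMXL4 (−1.37 ± 0.16, adjusted p = 0.000143) and SMXL7 (1.41 ± 0.14, adjusted p = 7.60e-06). A gene that was called in 1 condition and not in the other is accordingly not shown to differ between them.

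**Figure D2:**
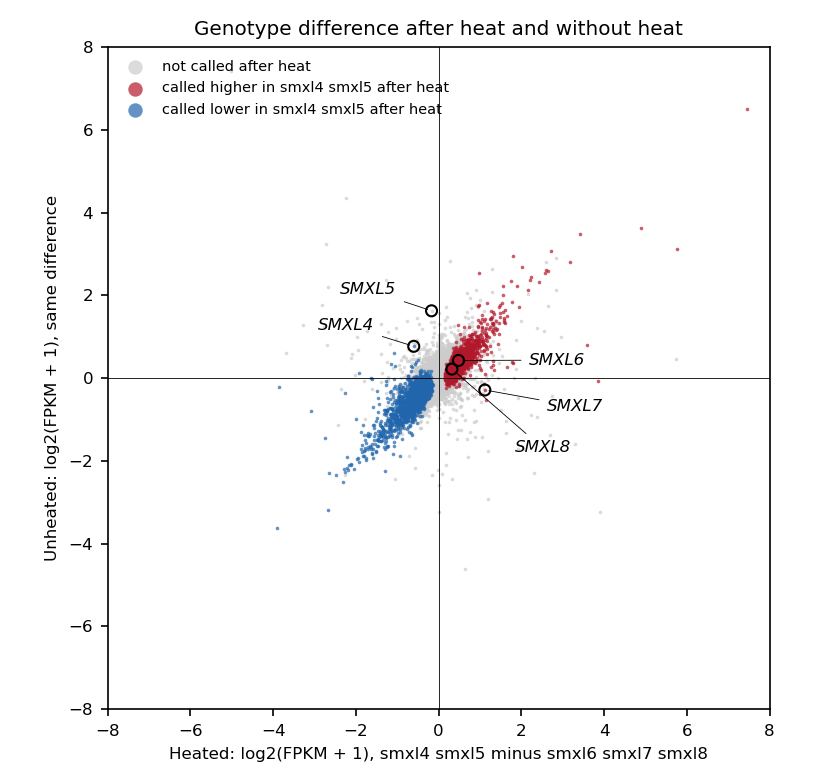
Log2 difference of each gene tested in both conditions, smxl4 smxl5 minus smxl6 smxl7 smxl8, after heat (x axis) and without heat (y axis); colours give the call after heat, and rings mark SMXL4 to SMXL8. The cloud follows the diagonal (r = 0.657), while SMXL4, SMXL5 and SMXL7 lie away from it.

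HB40 and DLK2, genes known to respond to strigolactone or karrikin signalling, were called lower with the label smxl4 smxl5, where BRC1 was near 0 and HB53 was also low. BRC1 (AT3G18550, chromosome 3, 6383289 to 6385815), a transcription factor that holds buds dormant and is the best known target repressed through SMXL6, SMXL7 and SMXL8, had 0.0430, 0.0402 and 0 FPKM in libraries labelled smxl4 smxl5, against 7.35, 4.71 and 5.01 FPKM in libraries labelled smxl6 smxl7 smxl8, without overlap, while heated Col-0 had 0.288, 0.131 and 0.196 FPKM. BRC1 passed the filter on low values through the smxl6 smxl7 smxl8 libraries alone, so it had to differ, and its values are a description. HB53, a homeodomain gene that BRC1 activates in buds, had 0, 0.160 and 0.649 FPKM with the label smxl4 smxl5 and 2.22, 1.89 and 1.15 FPKM with the label smxl6 smxl7 smxl8 (log2 difference −1.13 ± 0.22 SE), again without overlap. It passed the filter through the 3 smxl6 smxl7 smxl8 libraries and 2 libraries of ski2 dcl4. Without the smxl6 smxl7 smxl8 libraries HB53 would not have been tested, so its values are a description too. D27, which makes an early strigolactone precursor, went the other way, with 9.47, 13.8 and 11.6 FPKM in libraries labelled smxl4 smxl5, against 6.67, 6.04 and 6.48 FPKM in libraries labelled smxl6 smxl7 smxl8 (log2 difference 0.76 ± 0.15 SE, adjusted p = 0.0038). Of 14 tested genes of the strigolactone and karrikin pathways, 1 rose (7.14%) and 4 fell (28.6%), with a median of −0.24, against 11.0% and 8.89% over all genes. BRC1 and HB53 are counted among the 4 falls. Of the 13 genes other than BRC1, 3 fell, HB53 among them. The 4 falls became 2 without smxl4 smxl5 replicate 2. Without any smxl6 smxl7 smxl8 replicate BRC1 no longer passed the filter, and of the 13 genes then tested 2 fell without replicate 1 and 1 without replicate 2 or 3. The other falls were DLK2, a relative of the receptors (−0.57, adjusted p = 0.0238), and HB40, another bud homeodomain gene (−0.58, adjusted p = 0.0353). DLK2 was not called without smxl4 smxl5 replicate 1 or 2 or smxl6 smxl7 smxl8 replicate 2 or 3 (adjusted p from 0.0592 to 0.0933). HB40 was not called without smxl4 smxl5 replicate 2 or 3 or any 1 smxl6 smxl7 smxl8 replicate (adjusted p from 0.061 to 0.142). The receptor genes D14 (−0.01, adjusted p = 0.953) and KAI2 (−0.28, adjusted p = 0.128) and the F-box gene MAX2 (−0.22, adjusted p = 0.154) did not pass.

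AAP2, AHA3 and PP2-A1 were among 7 genes of phloem loading and companion cells that fell in the libraries labelled smxl4 smxl5. Of 12 tested genes of that list, 7 fell (58.3%) and 1 rose (8.33%), where 8.89% of all genes fell and 11.0% rose. The median was −0.48, and 5 of the 12 differences were positive. AAP2 (AT5G09220, chromosome 5, 2866222 to 2869156), an amino acid carrier of the phloem, had 41.97, 41.8 and 48.7 FPKM in libraries labelled smxl4 smxl5, against 127, 126 and 117 FPKM in libraries labelled smxl6 smxl7 smxl8 (log2 difference −1.46 ± 0.08 SE, adjusted p = 1.54e-07). AHA3 (AT5G57350, chromosome 5, 23230874 to 23236682), the proton pump of companion cells that powers sugar loading, had 8.69, 10.1 and 11.4 FPKM with the label smxl4 smxl5 and 32.1, 27.4 and 25.7 FPKM with the label smxl6 smxl7 smxl8 (log2 difference −1.41 ± 0.09 SE, adjusted p = 1.17e-06). PP2-A1, a phloem lectin, had 98.4, 101 and 104 FPKM in libraries labelled smxl4 smxl5, against 159, 151 and 149 FPKM in libraries labelled smxl6 smxl7 smxl8 (log2 difference −0.59 ± 0.06 SE, adjusted p = 5.33e-05). For these 3 genes every smxl4 smxl5 library lay below every smxl6 smxl7 smxl8 library, and heated Col-0 averaged 120.0, 27.8 and 152 FPKM. The sulfate carrier SULTR2;1 (−1.13, adjusted p = 8.98e-05), the amino acid exporter UMAMIT18 (−0.99, adjusted p = 0.000143) and FTIP1, which helps the flowering signal FT leave companion cells (−0.48, adjusted p = 0.00355), also fell. The sucrose carrier SUC2 averaged 22.3 FPKM with the label smxl4 smxl5 and 31.1 FPKM with the label smxl6 smxl7 smxl8 (−0.48, adjusted p = 0.0456), a call that was lost without smxl4 smxl5 replicate 1 or 2 or any 1 smxl6 smxl7 smxl8 replicate (adjusted p from 0.0694 to 0.16). SWEET12, which releases sucrose next to the phloem, was the rise (0.50, adjusted p = 0.0119). It was not called with only the 6 libraries compared in the fit (adjusted p = 0.0521). Its partner SWEET11 was not called (0.11, adjusted p = 0.363).

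Among 15 tested genes of phloem development, 4 fell (26.7%) and none rose (median −0.07), against 8.89% and 11.0% over all genes. The identity factor APL (AT1G79430, chromosome 1, 29877228 to 29879279) had 11.5, 10.9 and 10.9 FPKM in libraries labelled smxl4 smxl5, against 20.7, 18.17 and 18.6 FPKM in libraries labelled smxl6 smxl7 smxl8 (log2 difference −0.74 ± 0.07 SE, adjusted p = 4.52e-05). The genes for the sieve element filament proteins, SEOA and SEOB, neighbours on chromosome 3, moved alike. SEOA had 15.9, 13.2 and 15.6 FPKM with the label smxl4 smxl5 and 27.5, 26.7 and 23.9 FPKM with the label smxl6 smxl7 smxl8 (log2 difference −0.77 ± 0.11 SE, adjusted p = 0.000343). SEOB averaged 15.2 and 24.2 FPKM in the same order (−0.64, adjusted p = 0.000371). The groups did not overlap for any of these 3 genes. The Dof factor DOF2.4 also fell (−0.53, adjusted p = 0.0127), a call lost without smxl4 smxl5 replicate 3 (adjusted p = 0.0509). Early regulators of the protophloem were not called, among them the receptor gene BAM3 (−0.03, adjusted p = 0.868), OPS (0.06, adjusted p = 0.655) and BRX (−0.07, adjusted p = 0.842). In RNA of undissected seedlings, fewer phloem cells and less RNA per phloem cell cannot be told apart. The summed level of 6 phloem markers, of which 4 fell and 1 rose, was 213 to 238 FPKM with the label smxl4 smxl5 and 240.1 to 254 FPKM with the label smxl6 smxl7 smxl8. The sums of 4 xylem markers overlapped, at 47.5 to 52.2 and 50.9 to 55.4 FPKM in the same order. Of 10 tested xylem genes, 1 fell (10.0%, near the share of all genes), the protease gene XCP1 (−0.21, adjusted p = 0.0426), a call lost without smxl4 smxl5 replicate 2 or 3 or any 1 smxl6 smxl7 smxl8 replicate (adjusted p from 0.0942 to 0.153). All 7 falls of the loading list and all 4 of the development list were also called lower without heat.

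Genes that plants turn on when sugar is short were lower in the libraries labelled smxl4 smxl5. Of 16 tested low-sugar and dark-induced genes, 11 fell (68.8%, against 8.89% of all genes) and none rose (median −0.67), and the same numbers, 11 and 0, were called without heat. DIN1 (AT4G35770, chromosome 4, 16944878 to 16946266), a dark-induced gene widely used as a marker of low sugar, had 96.3, 34.9 and 47.5 FPKM in libraries labelled smxl4 smxl5, against 259, 356 and 215 FPKM in libraries labelled smxl6 smxl7 smxl8 (log2 difference −2.30 ± 0.29 SE, adjusted p = 0.000173). ASN1, the asparagine synthetase made in darkness, had 51.9, 23.4 and 31.6 FPKM with the label smxl4 smxl5 and 102, 146 and 82.8 FPKM with the label smxl6 smxl7 smxl8 (log2 difference −1.64 ± 0.27 SE, adjusted p = 0.00109). DRM1, a dormancy-associated gene, had 173, 128 and 124 FPKM in libraries labelled smxl4 smxl5, against 303, 376 and 274 FPKM in libraries labelled smxl6 smxl7 smxl8 (log2 difference −1.16 ± 0.15 SE, adjusted p = 0.000241). No heated smxl4 smxl5 library reached the lowest smxl6 smxl7 smxl8 library for any of the 3. TPS9, a trehalose phosphate synthase-like gene (−0.65, adjusted p = 0.000129), and TPS11 of the same family (−0.71, adjusted p = 0.00555) fell as well. So did AKINBETA1, a subunit of the SnRK1 energy sensor kinase (−0.90, adjusted p = 0.0013), and BCAT2 and MCCA, which break down branched-chain amino acids (−1.08, adjusted p = 0.0015 and −0.81, adjusted p = 0.00413). The other falls were those of DIN10 (−0.59, adjusted p = 0.00974), EXL2 (−0.60, adjusted p = 0.0259) and BT2 (−0.68, adjusted p = 0.037). EXL2 was not called without smxl4 smxl5 replicate 2 or 3 or smxl6 smxl7 smxl8 replicate 1 or 2 (adjusted p from 0.0501 to 0.0982). BT2 was not called without any 1 smxl4 smxl5 replicate or any 1 smxl6 smxl7 smxl8 replicate (adjusted p from 0.0556 to 0.138). DIN10 was not called with all 30 libraries in the fit (adjusted p = 0.182), and the 8 others were called in every alternative run. In 15 of the 16 tested genes the mean of the heated smxl6 smxl7 smxl8 libraries lay between those of smxl4 smxl5 and Col-0. Over all genes tested this held for 8713 of 20424. For DIN1, heated Col-0 had 485, 515 and 364 FPKM.

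SS1 and PGM1 were among 7 starch and sugar genes that rose in the libraries labelled smxl4 smxl5, and SUS1 fell. Of 18 tested genes of that list, 7 rose (38.9%), 1 fell (5.56%) and 10 were not called (median 0.40), against 11.0% and 8.89% over all genes. All 8 were called in every alternative run. SUS1 (AT5G20830, chromosome 5, 7050217 to 7055398), which splits sucrose in sink tissue, had 8.33, 7.15 and 7.96 FPKM in libraries labelled smxl4 smxl5, against 27.9, 27.6 and 25.7 FPKM in libraries labelled smxl6 smxl7 smxl8 (log2 difference −1.67 ± 0.09 SE, adjusted p = 1.44e-07). SS1, a starch synthase, had 100.1, 98.7 and 103 FPKM with the label smxl4 smxl5 and 71.3, 69.6 and 66.7 FPKM with the label smxl6 smxl7 smxl8 (log2 difference 0.53 ± 0.05 SE, adjusted p = 1.3e-05). PGM1, the plastid phosphoglucomutase needed for starch, had 82.7, 83.7 and 83.03 FPKM in libraries labelled smxl4 smxl5, against 52.4, 53.7 and 52.8 FPKM in libraries labelled smxl6 smxl7 smxl8 (log2 difference 0.64 ± 0.07 SE, adjusted p = 8.72e-05). The groups stood well apart for these 3 genes, with SUS1 low and the other two high in every smxl4 smxl5 library. The ADP-glucose pyrophosphorylase subunits ADG1 (0.58, adjusted p = 8.98e-05) and APL1 (0.39, adjusted p = 0.000208), the granule-bound synthase GBSS1 (1.07, adjusted p = 0.00632), the sucrose phosphate synthase SPS1F (0.51, adjusted p = 0.00014) and the plastid glucose phosphate carrier GPT2 (1.49, adjusted p = 0.00864) rose too. Without smxl4 smxl5 replicate 3 the list had 3 falls in place of 1. Genes of starch breakdown such as GWD1 (0.32, adjusted p = 0.323), SEX4 (0.29, adjusted p = 0.105) and BAM1 (−0.35, adjusted p = 0.106) were not called.

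Many carbon fixation genes rose by small amounts. Of 13 tested Rubisco and Calvin cycle genes, 8 rose (61.5%, against 11.0% of all genes) and none fell (median 0.33), where 1 of the 13 was called higher without heat. RBCS1B, a Rubisco small subunit gene, had 8227, 9322 and 8081 FPKM in libraries labelled smxl4 smxl5, against 3936, 4549.7 and 5274 FPKM in libraries labelled smxl6 smxl7 smxl8 (log2 difference 0.90 ± 0.10 SE, adjusted p = 9.65e-05). It has near-identical copies that may share reads, and its relative RBCS1A was listed at 0 in every library of both genotypes. PGK1, a phosphoglycerate kinase, had 1624, 1589 and 1676 FPKM with the label smxl4 smxl5 and 1342, 1298 and 1205 FPKM with the label smxl6 smxl7 smxl8 (log2 difference 0.35 ± 0.07 SE, adjusted p = 0.00282). The aldolase gene FBA1 had 1413, 1554 and 1724 FPKM in libraries labelled smxl4 smxl5, against 1171, 1039 and 1002 FPKM in libraries labelled smxl6 smxl7 smxl8 (log2 difference 0.54 ± 0.12 SE, adjusted p = 0.00624). None of these groups overlapped. The other rises were RCA, PRK, GAPA, GAPB and SBPASE, with log2 differences from 0.33 to 0.34. RCA was not called without smxl4 smxl5 replicate 2 or 3 or smxl6 smxl7 smxl8 replicate 2 or 3 (adjusted p from 0.0583 to 0.105), nor GAPA without smxl4 smxl5 replicate 1 or 2 or smxl6 smxl7 smxl8 replicate 2 or 3 (adjusted p from 0.055 to 0.0754). SBPASE was not called without smxl4 smxl5 replicate 1 or 2 or smxl6 smxl7 smxl8 replicate 3 (adjusted p from 0.0515 to 0.0786). The count of the list was 5 without smxl4 smxl5 replicate 2 and 5 without smxl6 smxl7 smxl8 replicate 3. No member of this list was called by the test of the change with heat. RCA is also 1 of the 4 shoot markers whose sum was higher with the label smxl4 smxl5, and the part of shoot tissue in these values was not tested. Of 23 tested photosystem and light-harvesting genes, 2 rose (8.70%, near the share of all genes) and none fell (median 0.10), PSBS (0.43, adjusted p = 0.0101), which dissipates excess light energy, and PSAG (0.26, adjusted p = 0.0204), a subunit of photosystem I. PSAG was not called without smxl4 smxl5 replicate 1 or smxl6 smxl7 smxl8 replicate 1 or 3 (adjusted p from 0.0737 to 0.0804).

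**Figure D3:**
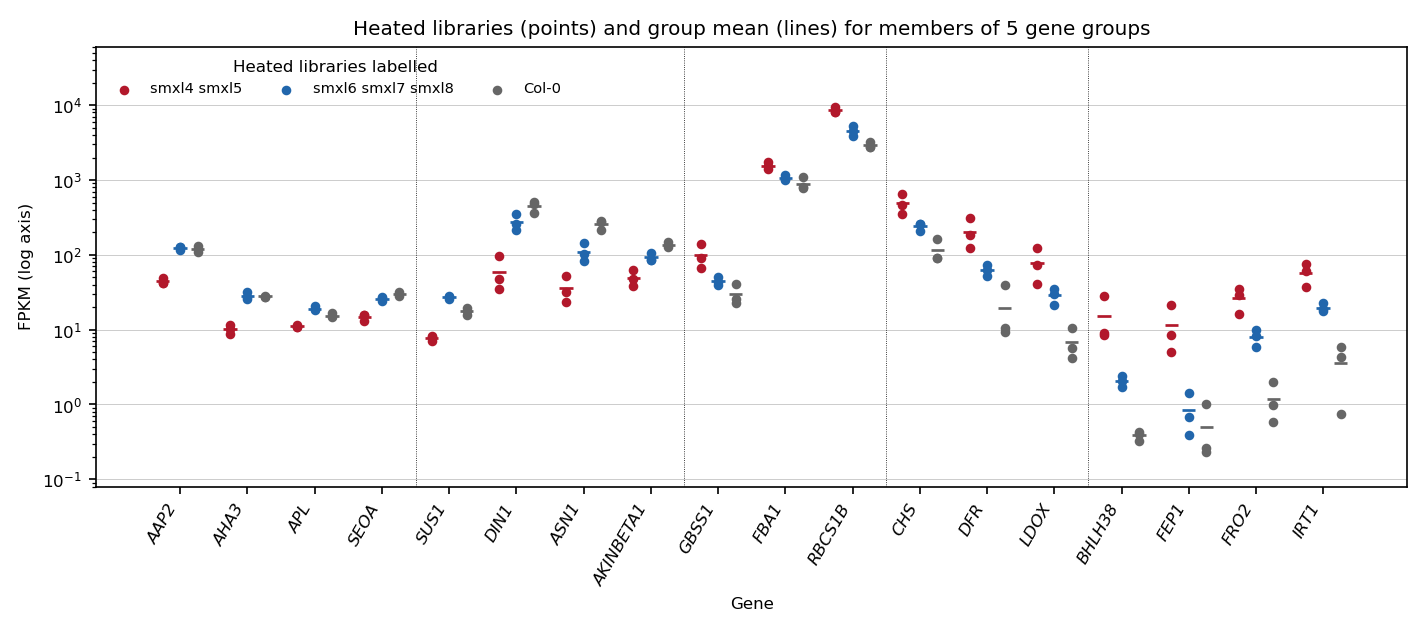
FPKM (log axis) in the heated libraries for 18 genes, from left to right phloem, sucrose and low-sugar, carbon fixation and starch, anthocyanin and iron genes; points are libraries, lines are means of 3, and the groups run smxl4 smxl5, smxl6 smxl7 smxl8 and Col-0. AAP2 averages 44.1, 123 and 120.0 FPKM in that order, and BHLH38 averages 15.1, 2.05 and 0.385 FPKM.

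Enzymes of anthocyanin and flavonoid synthesis were higher in the libraries labelled smxl4 smxl5, with wide scatter among those libraries. Anthocyanins are red pigments that accumulate under stress and when sugar is plentiful. Of 17 tested enzyme genes, 10 rose (58.8%, against 11.0% of all genes) and none fell (median 0.75), and 13 were called higher without heat. CHS (AT5G13930, chromosome 5, 4488476 to 4490264), the chalcone synthase at the entry of the pathway, had 356, 466 and 648 FPKM in libraries labelled smxl4 smxl5, against 256, 211 and 257 FPKM in libraries labelled smxl6 smxl7 smxl8 (log2 difference 0.98 ± 0.22 SE, adjusted p = 0.00783). DFR (AT5G42800, chromosome 5, 17164093 to 17166032), which commits the pathway to anthocyanin, had 122, 182 and 307 FPKM with the label smxl4 smxl5 and 73.9, 52.5 and 62.3 FPKM with the label smxl6 smxl7 smxl8 (log2 difference 1.59 ± 0.44 SE, adjusted p = 0.0224). UF3GT, a glycosyltransferase that decorates the pigment, had 9.16, 18.1 and 33.98 FPKM in libraries labelled smxl4 smxl5, against 7.63, 4.16 and 5.88 FPKM in libraries labelled smxl6 smxl7 smxl8 (log2 difference 1.49 ± 0.36 SE, adjusted p = 0.0114). Replicate 1 was the lowest and replicate 3 the highest of the smxl4 smxl5 libraries for each of the 3, yet none fell within the range of the other group. CHIL, a helper protein of the pathway (0.97, adjusted p = 0.00911), 5MAT, a malonyltransferase (1.24, adjusted p = 0.00959), TT19, which carries anthocyanin toward the vacuole (1.33, adjusted p = 0.0109), LDOX, which follows DFR (1.31, adjusted p = 0.0224), UGT78D2, a glycosyltransferase (0.75, adjusted p = 0.0295), and CHI, the isomerase after CHS (0.42, adjusted p = 0.0469), rose as well. So did AT4G14090, an anthocyanin glucosyltransferase (1.21, adjusted p = 0.0251). The groups overlapped for UGT78D2 and AT4G14090. In 14 of the 17 tested genes the smxl6 smxl7 smxl8 mean lay between those of smxl4 smxl5 and Col-0, against 8713 of all 20424 genes tested. Heated Col-0 had 9.27, 39.3 and 10.5 FPKM of DFR.

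The count of enzymes called depended on single libraries. It was 15 without smxl4 smxl5 replicate 1, the lowest of its group, and 5 without replicate 2 or 3. It was 3 without smxl6 smxl7 smxl8 replicate 2, 5 without smxl6 smxl7 smxl8 replicate 3, and 3 with only the 6 libraries compared in the fit. CHS and CHIL were called in every alternative. DFR was not called without smxl4 smxl5 replicate 2 or 3 or smxl6 smxl7 smxl8 replicate 2 or 3 (adjusted p from 0.0575 to 0.0884). LDOX was not called without smxl4 smxl5 replicate 2 or 3 or smxl6 smxl7 smxl8 replicate 2 or 3 (adjusted p from 0.0526 to 0.0889), and UF3GT was not called without smxl6 smxl7 smxl8 replicate 2 (adjusted p = 0.0511). CHI was not called without smxl4 smxl5 replicate 2 or 3 or any 1 smxl6 smxl7 smxl8 replicate (adjusted p from 0.0586 to 0.179), UGT78D2 without smxl4 smxl5 replicate 2 or 3 or smxl6 smxl7 smxl8 replicate 2 or 3 (adjusted p from 0.0812 to 0.115). AT4G14090 lost its call without smxl4 smxl5 replicate 2 or 3 or smxl6 smxl7 smxl8 replicate 2 or 3 (adjusted p from 0.0623 to 0.101), and TT19 without smxl6 smxl7 smxl8 replicate 2 (adjusted p = 0.0517). With only the 6 libraries compared in the fit, 5MAT, UF3GT, TT19, LDOX, CHI, UGT78D2 and AT4G14090 were not called (adjusted p from 0.0550 to 0.120). Among 9 tested regulators of the pathway 1 rose and 1 fell (11.1% each, near the shares of all genes). TT8, a bHLH factor that activates late enzymes, rose (0.98, adjusted p = 0.00603). MYBL2, a repressor of the pathway, fell, with 36.1, 25.1 and 23.04 FPKM in libraries labelled smxl4 smxl5, against 66.2, 59.9 and 50.1 FPKM in libraries labelled smxl6 smxl7 smxl8 (log2 difference −1.06 ± 0.16 SE, adjusted p = 0.000575). The groups of both genes did not overlap, and both calls held in every alternative. The activator PAP1 was not called, at means of 0.735 and 0.607 FPKM in the same order (0.10, adjusted p = 0.801).

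The 250 bases before the annotated start of 3 of the risen enzyme genes are shown because they hold the G-box, CACGTG, a palindrome that bHLH and bZIP factors can bind. Letters are RefSeq TAIR10.1, 5′ to 3′ along the gene, with the G-box in capitals, and the authors' build is not given in the sources used here.
CHS, chr5:4488226-4488475, plus strand: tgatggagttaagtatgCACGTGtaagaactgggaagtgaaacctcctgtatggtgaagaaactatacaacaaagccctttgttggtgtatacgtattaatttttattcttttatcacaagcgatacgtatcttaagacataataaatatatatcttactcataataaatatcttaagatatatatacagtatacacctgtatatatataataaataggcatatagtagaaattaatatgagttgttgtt
DFR, chr5:17166033-17166282, minus strand: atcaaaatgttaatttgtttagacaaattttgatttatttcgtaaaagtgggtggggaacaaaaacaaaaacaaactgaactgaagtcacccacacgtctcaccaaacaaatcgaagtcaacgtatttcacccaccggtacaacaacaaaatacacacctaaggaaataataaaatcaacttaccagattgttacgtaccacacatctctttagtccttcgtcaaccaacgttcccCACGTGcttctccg
UF3GT, chr5:21938397-21938646, minus strand: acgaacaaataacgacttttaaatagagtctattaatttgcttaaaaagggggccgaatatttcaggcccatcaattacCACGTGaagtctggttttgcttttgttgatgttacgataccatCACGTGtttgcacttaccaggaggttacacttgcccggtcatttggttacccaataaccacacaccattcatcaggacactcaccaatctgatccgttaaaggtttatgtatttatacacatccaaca
The motif lay in the windows of 5 of the 17 enzyme genes, CHS, F3H, DFR, UF3GT and CHIL, and in 2044 of 37897 such windows in the genome (5.39%). Of those 5 genes, 4 rose and F3H was not called (0.61, adjusted p = 0.145). The windows of the other risen enzyme genes, CHI, LDOX, UGT78D2, AT4G14090, 5MAT and TT19, held no G-box. Windows were searched whether or not they held exons of other genes. Those of F3H, AT4G14090 and TT19 overlap annotated exons of AT3G51238, AT4G14096 and AT5G17210, in that order. A match is a description of the letters and not a measured site.

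Iron-shortage genes were higher in the libraries labelled smxl4 smxl5. When iron runs low, the bHLH factors of subgroup Ib and the small FEP peptides are switched on, and they raise the ferric reductase FRO2 and the iron carrier IRT1 in root epidermis. Of 14 tested iron status genes, 10 rose (71.4%, against 11.0% of all genes) and none fell (median 1.07), and 8 were called higher without heat. BHLH38 (AT3G56970, chromosome 3, 21084035 to 21085245) had 8.35, 9.01 and 27.99 FPKM in libraries labelled smxl4 smxl5, against 2.39, 1.69 and 2.08 FPKM in libraries labelled smxl6 smxl7 smxl8 (log2 difference 2.20 ± 0.36 SE, adjusted p = 0.00101). BHLH100 (AT2G41240, chromosome 2, 17198037 to 17199454) had 8.33, 8.95 and 30.9 FPKM with the label smxl4 smxl5 and 2.07, 0.859 and 2.31 FPKM with the label smxl6 smxl7 smxl8 (log2 difference 2.43 ± 0.44 SE, adjusted p = 0.00208). BHLH39 (AT3G56980, chromosome 3, 21086390 to 21087710), which lies next to BHLH38, had 5.67, 5.12 and 15.5 FPKM in libraries labelled smxl4 smxl5, against 1.63, 1.34 and 1.84 FPKM in libraries labelled smxl6 smxl7 smxl8 (log2 difference 1.76 ± 0.31 SE, adjusted p = 0.00172). In each case smxl4 smxl5 replicate 3 was the highest library by far and the groups did not overlap. Heated Col-0 averaged 0.385, 0.217 and 0.330 FPKM of these genes. The peptide genes FEP1 and FEP2 followed. FEP1 had 8.44, 5.09 and 21.2 FPKM in libraries labelled smxl4 smxl5, against 0.677, 0.393 and 1.43 FPKM in libraries labelled smxl6 smxl7 smxl8 (log2 difference 2.60 ± 0.37 SE, adjusted p = 0.000444). FEP2 had 5.46, 2.67 and 13.3 FPKM with the label smxl4 smxl5 and 0.619, 0.632 and 0.946 FPKM with the label smxl6 smxl7 smxl8 (log2 difference 2.01 ± 0.35 SE). Their groups stood apart too, with smxl4 smxl5 replicate 2 the lowest and replicate 3 the highest. FEP3 (1.77), BHLH101 (1.35, adjusted p = 0.0152), the nicotianamine synthase NAS4 (0.75, adjusted p = 0.00332) and the reductase FRO3 (0.43, adjusted p = 0.00224) rose as well. So did FER1, a ferritin that stores iron and is normally made when iron is plentiful (0.80, adjusted p = 0.0199). FER1 was not called without smxl4 smxl5 replicate 1 or 2 or smxl6 smxl7 smxl8 replicate 1 or 3 (adjusted p from 0.0522 to 0.0787). FEP2 and FEP3 passed the filter on low values through the 3 smxl4 smxl5 libraries and 2 and 1 libraries of ski2 dcl4, with none of smxl6 smxl7 smxl8. Without the smxl4 smxl5 libraries neither would have been tested. Both are counted among the 10 rises, and their values are a description. With only the 6 libraries compared in the fit, FEP3 and BHLH101 were not called (adjusted p = 0.056 and 0.0636).

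The 250 bases before the annotated start are shown for the 4 subgroup Ib genes, which rose together, with the G-box again in capitals and all other letters in lower case.
BHLH38, chr3:21085246-21085495, minus strand: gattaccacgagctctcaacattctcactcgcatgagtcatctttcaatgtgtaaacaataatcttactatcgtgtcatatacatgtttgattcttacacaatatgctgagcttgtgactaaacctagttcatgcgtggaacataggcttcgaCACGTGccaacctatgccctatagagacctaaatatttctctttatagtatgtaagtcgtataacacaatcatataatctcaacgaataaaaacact
BHLH39, chr3:21087711-21087960, minus strand: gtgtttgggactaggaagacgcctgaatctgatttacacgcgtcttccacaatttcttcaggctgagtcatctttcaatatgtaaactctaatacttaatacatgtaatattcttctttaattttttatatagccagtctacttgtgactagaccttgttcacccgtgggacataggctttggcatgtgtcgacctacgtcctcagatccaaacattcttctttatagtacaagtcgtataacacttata
BHLH100, chr2:17199455-17199704, minus strand: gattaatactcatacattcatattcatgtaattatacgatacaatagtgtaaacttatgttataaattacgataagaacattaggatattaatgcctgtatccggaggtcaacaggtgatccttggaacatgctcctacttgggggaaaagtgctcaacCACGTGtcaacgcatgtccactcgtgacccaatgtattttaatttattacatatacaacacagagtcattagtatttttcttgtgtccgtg
BHLH101, chr5:1139634-1139883, minus strand: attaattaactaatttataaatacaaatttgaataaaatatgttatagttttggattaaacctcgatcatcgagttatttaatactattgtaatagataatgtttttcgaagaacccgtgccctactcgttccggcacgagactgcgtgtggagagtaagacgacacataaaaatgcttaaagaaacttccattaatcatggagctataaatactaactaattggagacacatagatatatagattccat
The windows of BHLH38 and BHLH100 each held 1 G-box, and those of BHLH39 and BHLH101 held none. Over the 14 iron status genes 5 windows held it, those of BHLH38, BHLH100, BTS, FER4 and OPT3, and BTS, FER4 and OPT3 were not called.

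Further down the pathway, 5 of 14 tested genes of root iron uptake and coumarin release rose (35.7%) and 1 fell (7.14%), with a median of 0.42, against 11.0% and 8.89% over all genes. S8H hydroxylates the iron-mobilising coumarin scopoletin. It had 3.86, 17.04 and 20.3 FPKM in libraries labelled smxl4 smxl5, against 1.34, 0.843 and 1.05 FPKM in libraries labelled smxl6 smxl7 smxl8 (log2 difference 2.57 ± 0.40 SE). S8H passed the filter on low values through 3 smxl4 smxl5 and 2 smxl6 smxl7 smxl8 libraries, with none of the other genotypes. Without the smxl4 smxl5 libraries it would not have been tested. It is counted among the 5, and its values are a description. FRO2 (AT1G01580, chromosome 1, 208995 to 213082) had 16.3, 29.1 and 35.3 FPKM with the label smxl4 smxl5 and 9.93, 5.95 and 8.31 FPKM with the label smxl6 smxl7 smxl8 (log2 difference 1.58 ± 0.32 SE, adjusted p = 0.00422). IRT1 (AT4G19690, chromosome 4, 10707344 to 10709015) had 37.1, 60.5 and 76.04 FPKM in libraries labelled smxl4 smxl5, against 22.4, 18.8 and 17.63 FPKM in libraries labelled smxl6 smxl7 smxl8 (log2 difference 1.46 ± 0.46 SE, adjusted p = 0.0401). The groups did not overlap for these genes. The call of IRT1 was lost without smxl4 smxl5 replicate 2 or 3 or any 1 smxl6 smxl7 smxl8 replicate (adjusted p from 0.071 to 0.127), under a pseudocount of 0.1 (adjusted p = 0.0959) and without the filter on low values (adjusted p = 0.0672). MYB10 (1.03, adjusted p = 0.000661) and BGLU42 (0.39, adjusted p = 0.00283), which act in coumarin release, rose, and the manganese and iron carrier NRAMP1 fell (−0.53, adjusted p = 0.0047). FIT, the master regulator of this step, averaged 11.5 FPKM with the label smxl4 smxl5 and 8.09 FPKM with the label smxl6 smxl7 smxl8 and was not called (0.45, adjusted p = 0.11). Beside these genes, of 16 tested root markers only RGFR2 was called (6.25%), and it was lower (−0.37, adjusted p = 0.0338), a call lost without smxl4 smxl5 replicate 1 or 2 or any 1 smxl6 smxl7 smxl8 replicate (adjusted p from 0.0562 to 0.143). The 8 root markers whose sum was higher with the label smxl4 smxl5 included IRT1, and the other 7 were not called.

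Few genes of the heat shock response were called. HSFA2 (AT2G26150, chromosome 2, 11135624 to 11137792) had 386, 426 and 274 FPKM in libraries labelled smxl4 smxl5, against 278, 498 and 482 FPKM in libraries labelled smxl6 smxl7 smxl8 (log2 difference −0.19 ± 0.28 SE, adjusted p = 0.698), with overlapping groups and a 95% confidence interval of the log2 difference from −0.80 to 0.43. Differences within that interval are compatible with these values, and the interval is not a limit of detection. Without heat HSFA2 did not pass the filter on low values. Of 17 tested small heat shock protein genes, 1 rose (5.88%, against 11.0% of all genes) and none fell (median −0.38), and 15 of the 17 had a negative difference that was not called, such as HSP21, the chloroplast member (−0.37, adjusted p = 0.655). Several have near-identical copies that may share reads. The median was −0.01 without smxl4 smxl5 replicate 3, −0.17 without smxl6 smxl7 smxl8 replicate 2 or 3, −0.61 without smxl4 smxl5 replicate 2 and −0.81 without smxl6 smxl7 smxl8 replicate 1. The rise was AT4G21870, annotated in RefSeq as an HSP20-like chaperone family gene, with 163, 128 and 103 FPKM with the label smxl4 smxl5 and 52.2, 65.6 and 81.6 FPKM with the label smxl6 smxl7 smxl8 (log2 difference 0.97 ± 0.23 SE, adjusted p = 0.00936). It was above the other group in every smxl4 smxl5 library, and was also called without heat (log2 difference 0.95, adjusted p = 0.0261).

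Of 21 tested large chaperone genes, 4 rose (19.0%, against 11.0% of all genes) and none fell (median 0.01), and 3 of the 4 encode chaperones of the chloroplast. HSP90.5, the chloroplast HSP90, had 174, 236 and 174 FPKM in libraries labelled smxl4 smxl5, against 119, 115 and 119 FPKM in libraries labelled smxl6 smxl7 smxl8 (log2 difference 0.71 ± 0.17 SE, adjusted p = 0.0101). CPN60B, a subunit of the chloroplast chaperonin that folds Rubisco, had 482, 582 and 474 FPKM with the label smxl4 smxl5 and 320.5, 325 and 321 FPKM with the label smxl6 smxl7 smxl8 (log2 difference 0.66 ± 0.17 SE, adjusted p = 0.0142). CPN60A, its partner subunit, had 555, 653 and 525 FPKM in libraries labelled smxl4 smxl5, against 368, 383 and 346 FPKM in libraries labelled smxl6 smxl7 smxl8 (log2 difference 0.65 ± 0.18 SE, adjusted p = 0.0226). Every smxl4 smxl5 library was above the other group, with replicate 2 the highest. The fourth was HSP90.6, the mitochondrial HSP90 (0.26, adjusted p = 0.0331). CPN60B was not called without smxl4 smxl5 replicate 2 (adjusted p = 0.064), nor CPN60A without smxl4 smxl5 replicate 2 or smxl6 smxl7 smxl8 replicate 1 or 3 (adjusted p from 0.0571 to 0.0912). HSP90.6 lost its call without smxl4 smxl5 replicate 2 or 3 or smxl6 smxl7 smxl8 replicate 1 or 2 (adjusted p from 0.057 to 0.136). The count of the list was 1 without smxl4 smxl5 replicate 2 and 2 without smxl6 smxl7 smxl8 replicate 1. In the unheated libraries, 3 of the 21 genes were called higher and none lower. No large chaperone gene was called by the test of the change with heat. HSP101 (−0.35, adjusted p = 0.637) and HSP70 (−0.04, adjusted p = 0.951), the classic cytosolic chaperones of heat tolerance, were not called.

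Of 18 tested heat shock factor genes, 1 fell (5.56%, against 8.89% of all genes), HSFA1B, a constitutive factor that starts the response (−0.29, adjusted p = 0.0353), and its call was lost without any 1 smxl4 smxl5 replicate or any 1 smxl6 smxl7 smxl8 replicate (adjusted p from 0.0607 to 0.12). Among 15 tested heat memory genes and HSFA2 targets 1 rose and 1 fell (6.67% each, below the 11.0% and 8.89% of all genes). DJA6, a chloroplast J-domain co-chaperone, rose, with 30.02, 36.6 and 33.8 FPKM in libraries labelled smxl4 smxl5, against 22.8, 20.6 and 20.9 FPKM in libraries labelled smxl6 smxl7 smxl8 (log2 difference 0.62 ± 0.08 SE, adjusted p = 0.000277) and no overlap. P58IPK, a co-chaperone of the endoplasmic reticulum, fell (−0.42, adjusted p = 0.0215), a call lost without smxl4 smxl5 replicate 3 or smxl6 smxl7 smxl8 replicate 1 or 3 (adjusted p from 0.064 to 0.0804). The targets HSA32 (−0.25, adjusted p = 0.333), MBF1C (−0.17, adjusted p = 0.701) and GOLS1 (−0.77, adjusted p = 0.0918) did not pass. Among 14 tested genes against reactive oxygen 1 rose (7.14%) and 2 fell (14.3%), where 11.0% of all genes rose and 8.89% fell. The catalase CAT2, which is also 1 of the 4 shoot markers, rose (0.49, adjusted p = 0.016), and the iron superoxide dismutase FSD1 (−0.35, adjusted p = 0.0274) and the zinc finger factor ZAT12 (−0.85, adjusted p = 0.00368) fell. CAT2 was not called without smxl4 smxl5 replicate 2 or 3 or smxl6 smxl7 smxl8 replicate 2 or 3 (adjusted p from 0.0567 to 0.0618), FSD1 without smxl4 smxl5 replicate 3 or any 1 smxl6 smxl7 smxl8 replicate (adjusted p from 0.064 to 0.0765), and ZAT12 with all 30 libraries in the fit (adjusted p = 0.112). Of 10 tested genes for folding in the endoplasmic reticulum, 1 fell (10.0%, near the 8.89% of all genes) and none rose. The fall was the calreticulin CRT1A (−0.31, adjusted p = 0.027), a call lost without smxl4 smxl5 replicate 2 or 3 or smxl6 smxl7 smxl8 replicate 1 (adjusted p from 0.0843 to 0.113).

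Transcripts of the mitochondrial genome were more abundant in the heated libraries labelled smxl4 smxl5. Their summed level was 1791, 2239 and 2121 FPKM in libraries labelled smxl4 smxl5, against 1364, 1344 and 1395 FPKM in libraries labelled smxl6 smxl7 smxl8, without overlap, and 10.9 to 16.9 FPKM in the unheated libraries of both. Of 81 tested genes, 18 rose (22.2%, against 11.0% of all genes) and none fell (median 0.39). Of the 6 that passed the filter without heat, none was called higher and 1 was called lower. No gene of the mitochondrial genome was called by the test of the change with heat. The count was 8 without smxl4 smxl5 replicate 2, 10 without smxl4 smxl5 replicate 3 and 10 without smxl6 smxl7 smxl8 replicate 2. Chloroplast genome transcripts varied more between libraries, with sums from 639.6 to 2814 FPKM in libraries labelled smxl4 smxl5 and from 117 to 1036 FPKM in libraries labelled smxl6 smxl7 smxl8, which overlap. There, 4 of 37 tested genes rose (10.8%, near the 11.0% of all genes) and none fell, and 2 rose without smxl4 smxl5 replicate 1 or smxl6 smxl7 smxl8 replicate 3.

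Hormone and growth genes gave smaller groups of calls, to be read against 11.0% of all genes higher and 8.89% lower. In jasmonate synthesis and wounding, where 3 of 12 tested genes rose (25.0%) and none fell (median 0.32), AOC2 had 214, 188 and 231 FPKM in libraries labelled smxl4 smxl5, against 103, 81.6 and 81.8 FPKM in libraries labelled smxl6 smxl7 smxl8 (log2 difference 1.25 ± 0.21 SE, adjusted p = 0.00115). LOX2, an early enzyme of the pathway, had 179.9, 207 and 301 FPKM with the label smxl4 smxl5 and 116, 91.5 and 109 FPKM with the label smxl6 smxl7 smxl8 (log2 difference 1.08 ± 0.23 SE, adjusted p = 0.00516). Heated Col-0 averaged 221 FPKM of AOC2, so here the smxl6 smxl7 smxl8 libraries were the low ones. AOS, which makes the substrate of AOC2, rose (0.70, adjusted p = 0.0198), a call lost without smxl4 smxl5 replicate 3 or smxl6 smxl7 smxl8 replicate 2 or 3 (adjusted p from 0.0567 to 0.0786). Among 16 tested auxin and cytokinin response genes, 6 rose (37.5%) and 1 fell (6.25%; median 0.23), and the rises included 3 auxin efflux carriers. PIN4 had 21.1, 20.9 and 23.4 FPKM in libraries labelled smxl4 smxl5, against 14.6, 13.9 and 12.4 FPKM in libraries labelled smxl6 smxl7 smxl8 (log2 difference 0.64 ± 0.08 SE, adjusted p = 0.000213), while PIN3 (0.47, adjusted p = 0.00119) and PIN7 (0.42, adjusted p = 0.00248) moved less. The groups of all 3 carriers were apart. The count of rises was 3 without smxl6 smxl7 smxl8 replicate 1. The cytokinin response regulator ARR5 was the fall (−0.49, adjusted p = 0.00355).

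Among 17 tested wall-loosening genes 3 rose (17.65%) and 4 fell (23.53%), with a median of −0.07, against 11.0% and 8.89% over all genes. EXPA10, an expansin, had 19.98, 19.2 and 17.55 FPKM in libraries labelled smxl4 smxl5, against 11.95, 9.48 and 11.3 FPKM in libraries labelled smxl6 smxl7 smxl8 (log2 difference 0.74 ± 0.12 SE, adjusted p = 0.000899). XTH24, a xyloglucan endotransglucosylase, had 156, 119 and 101 FPKM with the label smxl4 smxl5 and 258, 318 and 243 FPKM with the label smxl6 smxl7 smxl8 (log2 difference −1.13 ± 0.18 SE, adjusted p = 0.00105). Both were without overlap, in opposite directions. XTH30 fell as well (−0.45, adjusted p = 0.00392). Of 17 tested light growth genes 4 rose (23.53%) and none fell, among them the factors PIF1 (0.41, adjusted p = 0.00302) and PIF7 (0.45, adjusted p = 0.023) and the gibberellin synthesis gene GA20OX1 (0.65, adjusted p = 0.0102), while PIF4 was not called (−0.30, adjusted p = 0.0857). PIF7 was not called without smxl4 smxl5 replicate 2 or 3 or smxl6 smxl7 smxl8 replicate 2 or 3 (adjusted p from 0.0612 to 0.0855). The fourth was PIF3 (0.36, adjusted p = 0.0394), not called without any 1 smxl4 smxl5 replicate or smxl6 smxl7 smxl8 replicate 2 (adjusted p from 0.0649 to 0.163), and the count was 2 without smxl4 smxl5 replicate 2 or replicate 3. Of 25 tested cell cycle and replication genes 1 rose (4.00%), the ribonucleotide reductase TSO2 (0.52, adjusted p = 0.00759), and 4 rose with only the 6 libraries compared in the fit.

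Clock genes that peak in the morning gave 6 rises (46.2%) and 2 falls (15.38%) among 13 tested (median 0.27), against 11.0% and 8.89% over all genes, and those of the evening gave no call among 13, with 1 at an unadjusted p under 0.05. LHY, which together with CCA1 forms the morning arm, had 10.9, 17.43 and 24.8 FPKM in libraries labelled smxl4 smxl5, against 6.80, 5.09 and 6.07 FPKM in libraries labelled smxl6 smxl7 smxl8 (log2 difference 1.36 ± 0.34 SE, adjusted p = 0.0142). RVE8, an activator of evening genes, had 12.1, 18.52 and 25.6 FPKM with the label smxl4 smxl5 and 10.4, 7.22 and 9.57 FPKM with the label smxl6 smxl7 smxl8 (log2 difference 0.92 ± 0.21 SE, adjusted p = 0.00839). The groups did not overlap, and replicate 3 was the highest of the smxl4 smxl5 libraries for both. RVE8 was called in every alternative, and the 7 others each lost the call without 1 or more single libraries. LHY lost it without smxl4 smxl5 replicate 3 or smxl6 smxl7 smxl8 replicate 2 (adjusted p from 0.0535 to 0.0581) and RVE2 (0.48, adjusted p = 0.0307) without smxl4 smxl5 replicate 1 or 2 or any 1 smxl6 smxl7 smxl8 replicate (adjusted p from 0.0742 to 0.115). The count of rises was 2 without smxl4 smxl5 replicate 2 or 3 and without any smxl6 smxl7 smxl8 replicate, and 3 with no filter on low values. Times of harvest are not given in the labels.

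Stress and nutrient genes were mixed, and most of their counts lay near or below the 11.0% higher and 8.89% lower of all genes. Of 22 tested abscisic acid and drought genes 1 rose (4.55%) and 2 fell (9.09%; median −0.02). KIN1, a cold and drought gene, had 10.4, 8.56 and 15.9 FPKM in libraries labelled smxl4 smxl5, against 42.9, 37.7 and 28.8 FPKM in libraries labelled smxl6 smxl7 smxl8 (log2 difference −1.59 ± 0.23 SE, adjusted p = 0.000485), without overlap. The dehydrin gene ERD10 fell too (−0.84, adjusted p = 0.00185). LEA7 rose, with 3.63, 4.90 and 19.9 FPKM with the label smxl4 smxl5 and 2.40, 1.63 and 1.56 FPKM with the label smxl6 smxl7 smxl8 (log2 difference 1.55 ± 0.47 SE, adjusted p = 0.0344). Its mean rested on smxl4 smxl5 replicate 3, and its call was lost without smxl4 smxl5 replicate 3 or any 1 smxl6 smxl7 smxl8 replicate (adjusted p from 0.0581 to 0.0964). Of 16 tested cold and early stress factors, 1 rose (6.25%) and 3 fell (18.8%; median −0.37), among them the zinc finger factor ZAT7 (−1.46, adjusted p = 0.000485) and the ethylene response factors ERF104 (−0.96, adjusted p = 0.00135) and ERF5 (−0.52, adjusted p = 0.0319). ERF5 was not called without smxl4 smxl5 replicate 2 or 3 or smxl6 smxl7 smxl8 replicate 2 or 3 (adjusted p from 0.0817 to 0.105). The rise, of the cold regulator ICE1 (0.27, adjusted p = 0.0491), was not called without any 1 smxl4 smxl5 replicate or any 1 smxl6 smxl7 smxl8 replicate (adjusted p from 0.077 to 0.127). Among 11 tested salicylate and defence genes 1 rose and 1 fell (9.09% each). WRKY70, which tunes salicylate against jasmonate defence, fell, with 2.96, 3.59 and 5.77 FPKM in libraries labelled smxl4 smxl5, against 28.5, 11.01 and 15.5 FPKM in libraries labelled smxl6 smxl7 smxl8 (log2 difference −1.86 ± 0.39 SE, adjusted p = 0.00538). ICS1, which makes salicylate, rose (0.42, adjusted p = 0.00833). Of 14 tested nitrate and nitrogen genes 2 rose and 2 fell (14.3% each; median 0.06). The root-to-shoot nitrate carrier NRT1.5 had 50.7, 54.3 and 60.5 FPKM with the label smxl4 smxl5 and 98.7, 92.9 and 89.8 FPKM with the label smxl6 smxl7 smxl8 (log2 difference −0.76 ± 0.09 SE, adjusted p = 0.000109). The nitrate carrier and sensor NRT1.1 fell (−0.38, adjusted p = 0.0235), a call lost without smxl4 smxl5 replicate 1 or 2 or smxl6 smxl7 smxl8 replicate 1 (adjusted p from 0.0643 to 0.0955). The plastid glutamine synthetase GLN2 rose (0.30, adjusted p = 0.0102). None of 19 tested RNA silencing and decay genes was called by limma, and 2 had an unadjusted p under 0.05. Over the alternatives that count ranged from 0 to 1 in each direction.

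**Figure D4:**
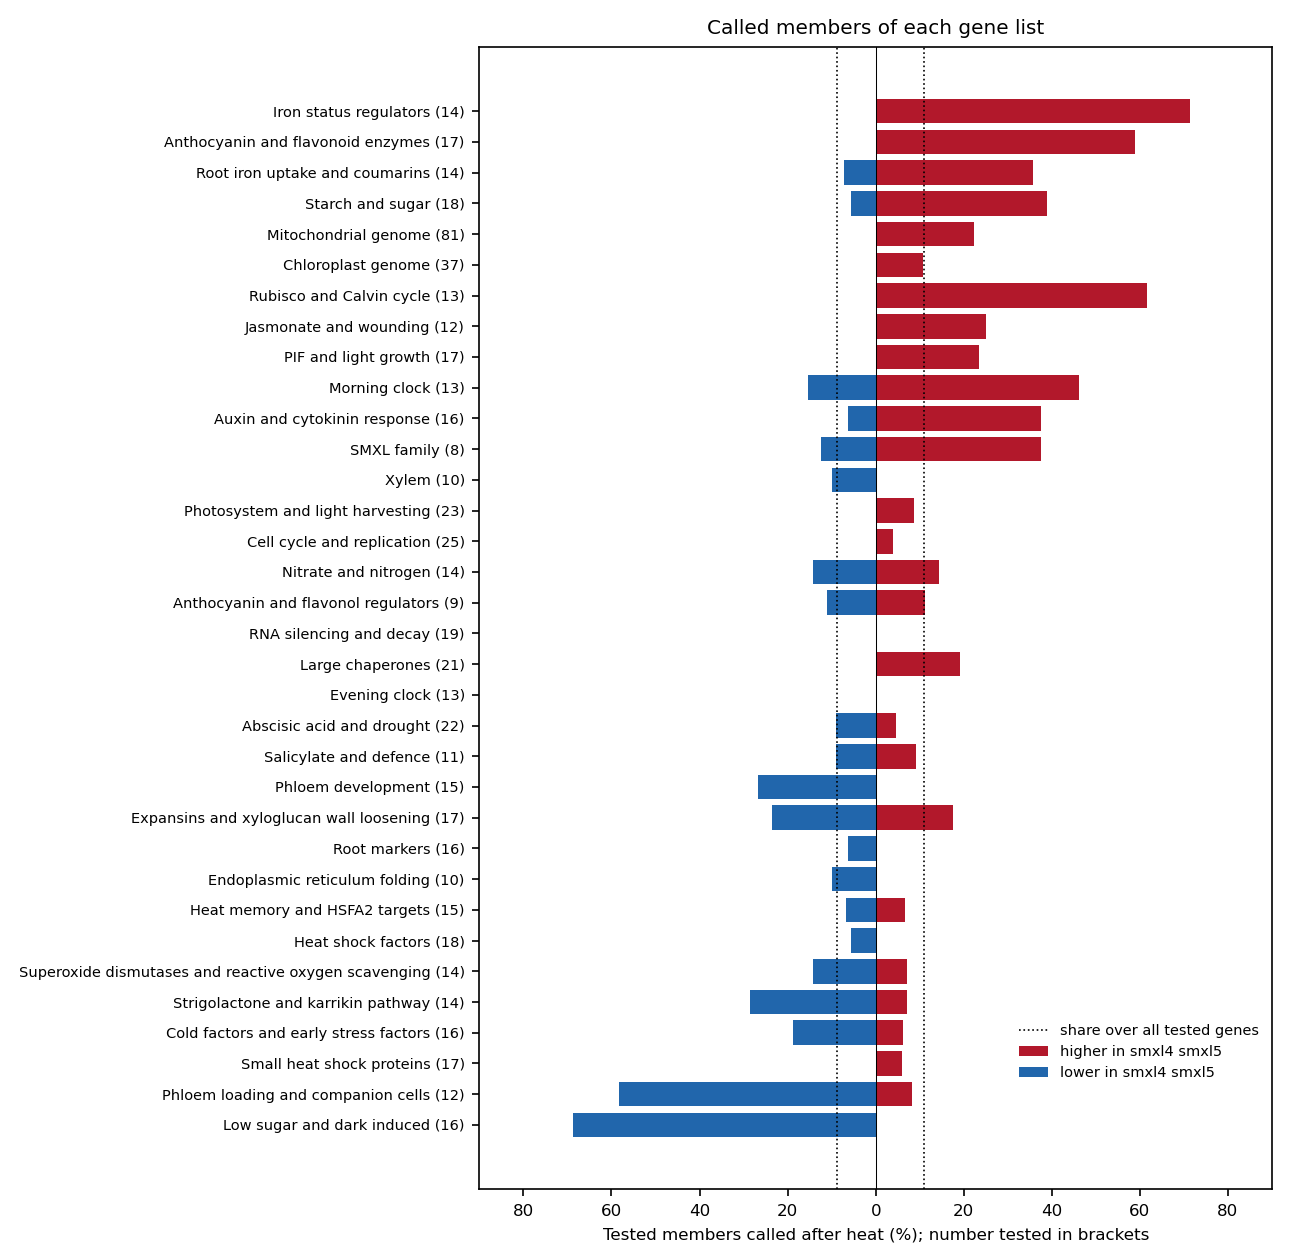
Share of the tested members of each gene list that was called after heat, higher in smxl4 smxl5 to the right and lower to the left, in percent, with lists ordered by the median log2 difference of their tested members. Dotted lines give the shares over all tested genes, 11.0% higher and 8.89% lower, and the longest bars are those of the iron status regulators (10 of 14 higher) and of the low-sugar genes (11 of 16 lower).

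Among the 12 largest rises of named genes, those not yet described were led by MIR157c, a microRNA precursor, with 29.99, 14.5 and 25.02 FPKM in libraries labelled smxl4 smxl5, against 0, 6.16 and 0 FPKM in libraries labelled smxl6 smxl7 smxl8 (log2 difference 3.59 ± 1.15 SE, adjusted p = 0.0437). It was listed at 0 in 2 of the 3 smxl6 smxl7 smxl8 libraries, and its call was lost without any 1 smxl4 smxl5 replicate or smxl6 smxl7 smxl8 replicate 1 or 3 (adjusted p from 0.0757 to 0.138). CASP5, a membrane protein of the root Casparian strip, had 6.16, 5.61 and 5.41 FPKM with the label smxl4 smxl5 and 1.28, 1.14 and 1.55 FPKM with the label smxl6 smxl7 smxl8 (log2 difference 1.54 ± 0.15 SE, adjusted p = 4.32e-05). BAG2, a co-chaperone gene, had 12.1, 15.95 and 18.6 FPKM in libraries labelled smxl4 smxl5, against 4.86, 4.98 and 5.62 FPKM in libraries labelled smxl6 smxl7 smxl8 (log2 difference 1.41 ± 0.13 SE, adjusted p = 2.73e-05). For CASP5 and BAG2 every smxl4 smxl5 library was well above the other group, and heated Col-0 averaged 2.83 FPKM of CASP5 and 13.5 FPKM of BAG2, the value of BAG2 being near the smxl4 smxl5 level.

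Among the 12 largest falls, AAP4, an amino acid permease, had 6.78, 6.47 and 6.54 FPKM in libraries labelled smxl4 smxl5, against 26.9, 26.1 and 26.6 FPKM in libraries labelled smxl6 smxl7 smxl8 (log2 difference −1.86 ± 0.06 SE, adjusted p = 1.34e-09). The replicates of each group lay within 1 FPKM of each other. MLP328, of the major latex protein family, had 19.5, 12.7 and 10.7 FPKM with the label smxl4 smxl5 and 87.2, 76.7 and 83.1 FPKM with the label smxl6 smxl7 smxl8 (log2 difference −2.48 ± 0.20 SE, adjusted p = 1e-05). MC3, a metacaspase, had 24.4, 22.8 and 19.3 FPKM in libraries labelled smxl4 smxl5, against 82.1, 81.8 and 76.5 FPKM in libraries labelled smxl6 smxl7 smxl8 (log2 difference −1.81 ± 0.10 SE, adjusted p = 3.01e-07). In heated Col-0 these 3 genes averaged 23.9, 88.6 and 87.9 FPKM, close to the smxl6 smxl7 smxl8 level. ATHB54, a homeodomain leucine zipper gene, had 0.739, 0.764 and 1.097 FPKM in libraries labelled smxl4 smxl5, against 11.4, 6.83 and 7.12 FPKM in libraries labelled smxl6 smxl7 smxl8 (log2 difference −2.31 ± 0.18 SE, adjusted p = 6.26e-06). Heated Col-0 averaged 0.941 FPKM, close to the smxl4 smxl5 level. The rest were the defensin gene PDF2.1 (−2.25, adjusted p = 3.87e-05), the glycine-rich protein gene GRP9 (−2.20, adjusted p = 4.34e-05), the gibberellin-regulated peptide gene GASA5 (−2.16, adjusted p = 2.89e-07), the chitinase gene HCHIB (−1.92, adjusted p = 4.17e-05) and FACT, which makes alkyl caffeates of suberin and wax (−1.84, adjusted p = 2.05e-06). None of the 12 overlapped between the groups, which the rule for naming required, and all 12 were also called lower without heat.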

How the data were processed

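FPKM values were used as deposited, in 1 table made by the authors for 30 libraries. The unit was read from the values, which are not whole and whose smallest steps fall with gene length. The submitters' processing notes name Bowtie without a version, and which build, annotation and counter made the values is not given in the sources used here. Because no counts were given, no count test was run. Values were transformed to log2(FPKM + 1). A gene entered a fit when 3 or more of its libraries reached 1 FPKM. limma 3.58.1 in R 4.3.3, with an intensity trend and Benjamini-Hochberg adjustment over all tested genes, was fitted to the 15 heated libraries, to the 15 unheated ones, and to all 30 for the change of the difference with heat. Calls have an adjusted p under 0.05. Scripts were tested on simulated data.

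Members and gene lists were chosen with earlier results of these data known, so list counts are descriptions. Named genes were SMXL4 to SMXL8, HSFA2, the 12 largest rises and falls with a mean of at least 5 FPKM, no overlap and a RefSeq symbol, and from each list the 3 called genes with the smallest adjusted p (1 in lists with fewer than 3 calls). Other called list members were named after their values were seen. Gene positions and promoters are RefSeq TAIR10.1, matched by identifier for 37792 of 38088 genes (99.2%). The main fits did not pair libraries by replicate number, as stated in the closing section.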

Additional observations from a re-analysis of the deposited data

Results flagged for a closer look

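A difference between the genotypes that changed with heat, by limma's test of that change over all 30 libraries, was found for SMXL5 (−1.80), SMXL4 (−1.37) and SMXL7 (1.41 on the log2 scale; adjusted p = 1.16e-08, 0.000143 and 7.60e-06). Each value is the heated minus the unheated difference, smxl4 smxl5 minus smxl6 smxl7 smxl8. SMXL5 was higher with the label smxl4 smxl5 in 3 of 3 unheated libraries and overlapped after heat, while SMXL7 was higher with that label in 3 of 3 heated libraries and lower in 3 of 3 unheated ones. All 3 are genes named by a genotype label.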

How the results depend on the processing

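The heated count of 4063 genes stayed between 2739 and 4789 over 14 alternatives (pseudocount, filter, rescaling, libraries in the fit, intensity trend, block, single libraries left out), and was 2739 to 3640 with a library left out. The unheated count of 3706 was 1682 with only the libraries compared and 2310 to 4288 with a library left out, lowest without smxl4 smxl5 replicates 2 (2310) and 3 (2392). The 3 changes with heat became 11 with no filter and 5 with the replicate block, and 3 to 6 with a library left out (6 without heated smxl4 smxl5 replicate 1). SMXL4, SMXL5 and SMXL7 stayed called in each of these. The cause was not tested for any of these. Rescaling by upper quartiles gave 2075 rises and 2000 falls. Of 161 called results of single genes, 100 were called in every alternative run. Over 2293 alternatives of single genes 292 missed the threshold and 0 reversed, and settings other than a left-out library ended the calls of 37 of these genes. SUC2 missed it in 5 such settings (adjusted p from 0.0517 to 0.0967), CHI in 5 (from 0.0527 to 0.0705) and RCA with no filter (adjusted p = 0.141).

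Same-numbered libraries of the heated groups did not deviate together (correlations −0.207, −0.0716 and −0.132), and differently numbered ones reached 0.244. With 3 libraries per group, such correlations cannot tell whether libraries of the same number were grown or handled together. The main fits did not pair them. With the replicate block 3757 genes were called after heat and 3571 without. Low values rest on few reads, since 1 FPKM per kb of transcript came to roughly 13.1 to 15.5 of them.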

Other observations

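Phosphate starvation genes, a list chosen after their values were seen, gave 10 rises and 1 fall among 19 tested in the heated libraries labelled smxl4 smxl5 (median 0.82), where 11.0% of all genes rose and 8.89% fell, and 12 rises and 2 falls without heat. When phosphate is short, plants replace membrane phospholipids with sulfolipids and galactolipids. SQD1 (AT4G33030), the sulfolipid synthesis enzyme, had 158, 146 and 159 FPKM in libraries labelled smxl4 smxl5, against 56.9, 57.5 and 59.5 FPKM in libraries labelled smxl6 smxl7 smxl8 (log2 difference 1.40 ± 0.10 SE, adjusted p = 2.38e-06). SQD2, the next enzyme, had 53.5, 57.1 and 66.8 FPKM with the label smxl4 smxl5 and 30.3, 32.3 and 29.3 FPKM with the label smxl6 smxl7 smxl8 (log2 difference 0.92 ± 0.10 SE, adjusted p = 8.98e-05). MGD2, a galactolipid synthase gene, had 7.83, 7.25 and 10.1 FPKM in libraries labelled smxl4 smxl5, against 3.00, 3.38 and 3.74 FPKM in libraries labelled smxl6 smxl7 smxl8 (log2 difference 1.096 ± 0.14 SE, adjusted p = 0.000248). The groups were apart for all 3, and heated Col-0 averaged 71.01, 40.9 and 4.34 FPKM, nearer the smxl6 smxl7 smxl8 level. IPS1, a noncoding RNA that is induced by phosphate shortage and captures a microRNA, was also among the 12 largest rises, with 57.9, 42.5 and 45.8 FPKM with the label smxl4 smxl5 and 2.39, 16.2 and 7.32 FPKM with the label smxl6 smxl7 smxl8 (log2 difference 2.65 ± 0.50 SE, adjusted p = 0.00272). The fall was GDPD2, a phosphodiesterase gene (−1.16, adjusted p = 0.00208). The count of rises was 6 without smxl4 smxl5 replicate 3 and 6 without smxl6 smxl7 smxl8 replicate 2.

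Among the 4063 genes called after heat, heated Col-0 lay between the mutants in 2303 (56.7%), smxl6 smxl7 smxl8 lay between smxl4 smxl5 and Col-0 in 1379 (33.9%), and smxl4 smxl5 lay between the others in 381 (9.38%). Within 500 kb of the 5 genes named by the genotypes, 18.9% to 23.8% of the tested genes were called, against 19.9% over all genes.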
